A study of Mus musculus with 12 samples.

Results

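The genes described here serve the folding of secreted proteins in the endoplasmic reticulum (ER) and the unfolded protein response. They are 36 mouse genes given by name: chaperones of the ER, the machinery that removes misfolded ER proteins, and sensors, transcription factors and targets of the unfolded protein and integrated stress responses. Each symbol was matched to an identifier of the count table. They are 36 of the 53715 genes listed and 36 of the 17779 genes tested, so no member was lost to the filter on low counts.

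RNA was sequenced from 12 libraries, 4 biological replicates in each of 3 groups of liver cells, all of the mouse strain C57BL/6JOlaHsd. The study set cultured hepatocytes beside their embryonic starting cells and beside hepatocytes of the adult liver. Hepatoblasts, the embryonic precursors of hepatocytes and bile duct cells, were the Dlk1+ cells of pooled E14.5 (embryonic) livers. They were separated with magnetic beads after lysis of red cells and used for RNA without culture. Diff. hepatocytes were such Dlk1+ cells after 4 days on fibronectin in a differentiation medium. The medium held serum, glutamine, an insulin, transferrin and selenium supplement, dexamethasone and Matrigel. Mature hepatocytes came from adult male mice of 8 to 12 weeks by collagenase perfusion and were likewise used without culture. Hepatoblasts and Diff. hepatocytes share the embryonic source and the bead isolation and differ by the culture and the time it took. Mature hepatocytes differ from both in age and way of isolation, and from Diff. hepatocytes also in culture. They came from males and the other groups from pooled embryos, so sex may differ as well. The parts of age, isolation, culture and sex cannot be told apart. The study also describes bile duct cells growing beside hepatocytes in its cultures.

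Proteins destined for secretion enter the ER unfolded and are folded there by chaperones, lectins that read their sugar chains, and enzymes that form disulfide bonds. When unfolded proteins build up, sensors in the ER membrane signal to the nucleus and to the translation machinery, and the transcription factors they release raise chaperone and degradation genes. The PERK sensor shares its downstream arm, the integrated stress response, with kinases that sense lack of amino acids, and hepatocytes, which secrete most plasma proteins, carry a large ER and a liver-enriched factor of the same kind, Creb3l3.

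The count totals of the libraries ran from 19581551 to 25216977 reads on genes. Values are given in CPM, counts relative to the size of the library after edgeR's TMM scaling, with mean ± SD over 4 libraries. TPM, which divide counts by exon length, are used where levels of different genes are set side by side. Differences between groups are log2 fold changes with their standard error (SE). Calls come from the quasi-likelihood test of edgeR, adjusted by Benjamini-Hochberg over the 17779 genes, and need an adjusted p below 0.01 with a log2 fold change beyond 1 either way. The comparisons share their libraries and are not independent of each other.

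The labels were checked against cell type markers. Dlk1, the surface protein used to sort hepatoblasts, had 2461, 3529.9, 3903 and 4199 CPM in the hepatoblast libraries, 95.9, 93.5, 99.1 and 88.3 CPM in those of Diff. hepatocytes and 3.63, 3.53, 6.42 and 3.17 CPM in those of mature hepatocytes. The groups did not overlap. Cps1, the first enzyme of the urea cycle, ranged from 16.7 to 29.9 CPM in hepatoblasts, from 5298 to 6190.0 CPM after culture and from 5264 to 6850.2 CPM in mature hepatocytes. Cyp2e1, a cytochrome of adult liver, reached 4287 to 9050.4 CPM in mature hepatocytes and stayed between 2.31 and 4.24 CPM in the other two groups. The 10 hepatoblast and hepatocyte markers summed to 87558 ± 18599.7 CPM in the hepatoblast libraries, 77002 ± 5716 CPM in those of Diff. hepatocytes and 136561 ± 21002 CPM in those of mature hepatocytes. Afp was the most abundant of them in hepatoblasts and Alb in the other two groups, and each of the 10 had counts in each group.

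RNA of other cell types was present in each group. The 10 erythroid markers summed to 2598, 514, 418 and 311 CPM in the hepatoblast libraries, between 6.17 and 24.3 CPM in those of Diff. hepatocytes and 185, 159, 149 and 135 CPM in those of mature hepatocytes, where Alas2, a heme synthesis enzyme, gave 151 CPM of the mean of 157 CPM. Hbb-bs was the most abundant erythroid marker in the other two groups. The 9 macrophage markers summed to 378, 89.7, 109 and 105 CPM in the hepatoblast libraries, 184, 89.2, 27.1 and 43.6 CPM in those of Diff. hepatocytes and 245, 142, 269.6 and 141 CPM in those of mature hepatocytes. Their most abundant genes were Cd5l, Lyz2 and Clec4f in this order of the groups. The 8 endothelial markers, led by Stab2, Egfl7 and Stab2, summed to 146, 75.5, 54.8 and 50.0 CPM, to 11.7, 16.0, 8.75 and 12.3 CPM and to 197, 110.3, 208 and 148 CPM.

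Summed markers of connective tissue and of the bile duct were highest in the cultures. The 8 mesenchymal markers summed to 677, 749, 1321 and 910.1 CPM in the hepatoblast libraries, 2957, 1451, 2001 and 1216 CPM in those of Diff. hepatocytes and 48.8, 48.5, 65.4 and 49.9 CPM in those of mature hepatocytes, with Col1a1, Col1a1 and Dcn as their most abundant genes. The 6 bile duct markers summed to 13.7, 14.3, 16.2 and 13.7 CPM in the hepatoblast libraries, 286, 91.2, 134 and 109 CPM in those of Diff. hepatocytes and 40.7, 36.8, 28.0 and 15.4 CPM in those of mature hepatocytes, led by Sox9, Krt19 and Spp1, and Cldn4 had 0 counts in mature hepatocytes. Krt7, Krt19, Epcam and Cldn4 carried the sum of the cultures. The means of Sox9 (4.29 to 5.45 CPM in Diff. and 4.94 to 16.3 CPM in mature hepatocytes) and Spp1 (4.39 to 11.9 and 5.28 to 29.3 CPM) were higher in mature hepatocytes. Neither sum overlapped between Diff. hepatocytes and mature hepatocytes. Sums of the 4 megakaryocyte markers, led by Itga2b in each group, were 30.1 ± 17.8, 42.9 ± 20.2 and 4.10 ± 0.760 CPM in the order hepatoblasts, Diff. hepatocytes and mature hepatocytes. Those of the 7 B and plasma cell markers, of which 6 were tested, were 1.76 ± 1.41, 0.312 ± 0.0663 and 2.85 ± 1.02 CPM. Their most abundant genes were Cd79b, Mzb1 and Igkc. Tnfrsf17 had 0 counts in hepatoblasts and in mature hepatocytes, and Igkc had 0 counts in Diff. hepatocytes. In bulk RNA, fewer cells of a type and less RNA per cell cannot be told apart. The part of other cell types in the results on the members was not tested.

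Single libraries stood apart. Hepatoblasts replicate 1 had the highest erythroid, macrophage, endothelial, megakaryocyte and B and plasma cell sums of its group and the lowest sum of hepatoblast and hepatocyte markers (63011 CPM against 84828 to 106480.0 CPM). In it 29 of the 36 members were lower than in the mean of the other 3 hepatoblast libraries, at a median log2 difference of −0.35 where the median of all genes was −0.05. For the 15 members that fold proteins (chaperones, lectins and disulfide isomerases) that median was −0.46, and each of the 15 was lower. In Diff. hepatocytes replicate 1 the bile duct and mesenchymal sums were the highest of the group. Mature hepatocytes replicate 2 had the lowest values of its group for Fos (105 CPM against 197 to 213 CPM) and for Atf5. Diff. hepatocytes replicate 2 and mature hepatocytes replicate 4 were low for the members as well, each with 29 of the 36 below the mean of its group's other libraries. Of the 15 folding members, 15 (median −0.18) and 14 (median −0.33) were below it. Results were recomputed without replicate 1 of the hepatoblasts, replicate 1 of the Diff. hepatocytes and replicate 2 of the mature hepatocytes together, a setting chosen after seeing the data. The low replicates 2 of the Diff. hepatocytes and 4 of the mature hepatocytes were left out only one at a time.

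In Diff. hepatocytes against hepatoblasts, 10 of the 36 members were called higher (27.8%, beside 14.9% of all tested genes) and 2 were called lower (5.56%, beside 14.0%). In either direction this made 33.3% of the members and 28.9% of all genes. In mature hepatocytes against hepatoblasts, 7 members were called higher (19.4%, beside 20.1%) and 5 lower (13.9%, beside 24.7%), which together made 33.3% of the members and 44.8% of all genes. In Diff. hepatocytes against mature hepatocytes, 7 members were called higher (19.4%, beside 20.2%) and 2 lower (5.56%, beside 15.6%), together 9 of the 36 members, beside 35.8% of all genes. The share of members called higher in Diff. hepatocytes against hepatoblasts was above that of all genes, while the other shares were near or below it. With library totals the share called higher in that comparison was not above that of all genes. The median log2 fold change of the members was 0.12, 0.18 and 0.05 in these comparisons, and that of all tested genes −0.01, −0.15 and 0.09. Without the 3 libraries that stood apart, 9 members were called higher and 2 lower in the first comparison, 9 and 5 in the second, and 7 and 2 in the third.

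The calls depended on how libraries were scaled. Of the genes called by TMM scaling, 51.5%, 44.9% and 56.4% were higher in the 3 comparisons, in the order above. With library totals these shares were 35.4%, 20.2% and 75.6%, and with totals lacking the 50 most abundant genes 46.0%, 24.5% and 76.5%. Library totals moved the median log2 fold change of all genes by −0.32, −0.85 and 0.53. Members called higher and lower were then 4 and 3, 2 and 16, and 9 and 0. Higher calls made 11.1% of the members beside 11.2% of all genes, 5.56% beside 11.3%, and 9 of 36 beside 30.9%, and lower calls 8.33% beside 20.4%, 44.4% beside 44.5%, and 0 of 36 beside 9.99%. Relative to the median of all genes the members' median moved little, from 0.13, 0.33 and −0.04 with TMM to 0.14, 0.35 and −0.03 with library totals. No called member changed sign under any of the 22 alternative settings, including these, but TPM were not among them. In mature hepatocytes against hepatoblasts, 4 of the 12 called members had a mean TPM in the other direction (Dnajb9, Edem1, Syvn1 and Atf6), and in the other comparisons 0 did. The TPM of these groups overlapped for Dnajb9, Syvn1 and Atf6 and did not for Edem1.

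**Figure D1:**
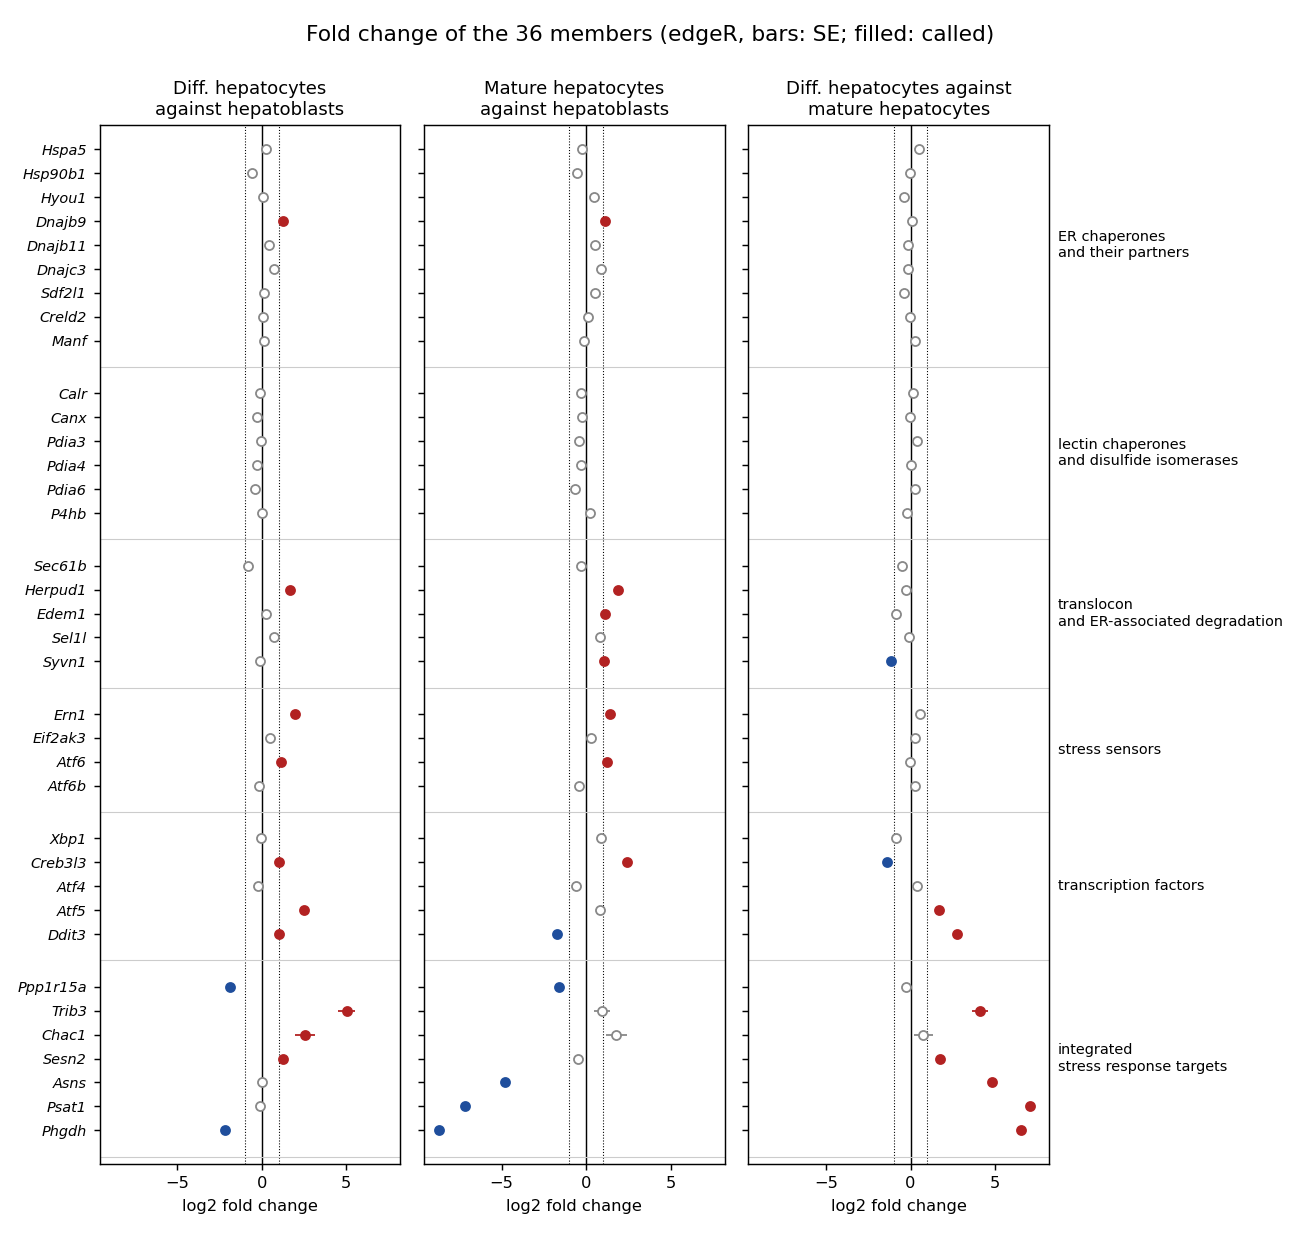
Log2 fold change (x axis, with SE bars) of each of the 36 members (y axis, by role) in the 3 comparisons. Filled points were called by edgeR (adjusted p below 0.01, log2 fold change beyond the dotted lines at 1 either way), red for higher and blue for lower; the folding members at the top lie between −0.68 and 1.24, and the integrated stress response targets at the bottom between −8.74 and 7.08. With library totals 8, 8 and 13 members took the other sign, and calls away from 0, such as that of Chac1 against hepatoblasts (2.16), were lost as well.

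Of the chaperones and their partners, 1 of 9 was called in either hepatocyte group against hepatoblasts, beside 28.9% (Diff.) and 44.8% (mature) of all genes. Hspa5 (BiP, ENSMUSG00000026864, chr2:34771970-34777547 of GRCm38, plus strand), the central chaperone of the ER and the gene most used to read ER stress, had 1329, 1751, 1860.3 and 1823 CPM in the hepatoblast libraries, 2067, 1750.3, 2004 and 2096 CPM in those of Diff. hepatocytes and 1628, 1405, 1483 and 1111 CPM in those of mature hepatocytes. Libraries of Diff. hepatocytes all lay above those of mature hepatocytes, while the hepatoblast libraries overlapped both. The log2 fold change of Hspa5 was 0.23 (SE 0.14, adjusted p = 0.181) in Diff. hepatocytes against hepatoblasts, −0.27 (SE 0.14, adjusted p = 0.106) in mature hepatocytes against hepatoblasts and 0.49 (SE 0.14, adjusted p = 0.00756) in Diff. hepatocytes against mature hepatocytes. None of these was called. With library totals the first changed sign (−0.09), the second was called lower (−1.10) and the third called higher (1.02). Relative to the median of all genes, these were 0.25, −0.10 and 0.40.

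Of the 9 chaperones and partners, the J-domain protein Dnajb9, which steers misfolded proteins to BiP and to degradation, was the member called higher in both hepatocyte groups. From 29.9 ± 4.38 CPM in hepatoblasts it rose to 70.4 ± 2.86 CPM with culture (log2 fold change 1.24, SE 0.12, adjusted p = 1.68e-06) and to 66.0 ± 10.3 CPM in mature hepatocytes (1.14, SE 0.12, adjusted p = 1.72e-06). Neither hepatocyte group overlapped the hepatoblasts. In TPM the means were 40.6, 67.5 and 36.2 in hepatoblasts, Diff. and mature hepatocytes. The mean of mature hepatocytes was thus below that of hepatoblasts, while the libraries of these groups overlapped. Both calls were lost with library totals (0.92 and 0.29), the second also with totals without the 50 most abundant genes (0.47), and both when edgeR's glmTreat tested against the threshold of 1 itself (adjusted p = 0.0438 and 0.101). The other J-domain proteins had smaller differences from hepatoblasts without a call. Dnajc3 had a log2 fold change of 0.72 in Diff. hepatocytes and 0.87 in mature hepatocytes, and Dnajb11 of 0.41 and 0.55, with no overlap of the libraries in CPM in these 4 cases. With library totals they were 0.41 and 0.03 for Dnajc3 and 0.09 and −0.30 for Dnajb11. By TPM, Dnajb11 in mature hepatocytes (49.9 to 79.7) lay wholly below hepatoblasts (101 to 117). The other cases overlapped in TPM. Mean TPM in hepatoblasts, Diff. and mature hepatocytes were 137, 159.5 and 102 for Dnajc3 and 107, 101 and 63.9 for Dnajb11.

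Hsp90b1, the ER form of Hsp90, had 1436 ± 227 CPM in the hepatoblast libraries, 938 ± 47.3 CPM in those of Diff. hepatocytes and 975 ± 130.5 CPM in those of mature hepatocytes. Its libraries did not overlap between hepatoblasts and Diff. hepatocytes, and neither difference was called (log2 fold change −0.61, SE 0.13 and −0.56, SE 0.13). It was called lower in mature hepatocytes than in hepatoblasts with library totals (−1.40) and with totals without the 50 most abundant genes (−1.22). Hsp90b1 shares 415 exon bases with a gene on the opposite strand and 217 with genes on its own, and Manf shares 312 and 14. Hyou1, a large Hsp70 relative that works on BiP, had log2 fold changes of 0.10 and 0.48 against hepatoblasts in Diff. and mature hepatocytes. The ER stress proteins Sdf2l1, Creld2 and Manf lay between −0.15 and 0.54 against hepatoblasts in both. In Diff. hepatocytes against mature hepatocytes no chaperone or partner was called by edgeR or by DESeq2, with log2 fold changes from −0.40 to 0.49. There edgeR called 35.8% of all genes. At an unadjusted p under 0.05 from edgeR, 1 of the 9 was higher and 1 lower. The median of the 9 was 0.15, 0.48 and −0.06 in the 3 comparisons, and with library totals −0.17, −0.35 and 0.45, so that the sign of each median flipped. Relative to all genes it was then 0.16, 0.65 and −0.17.

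The lectin chaperones and disulfide isomerases gave no call in any comparison. Calr and Canx, the lectins that hold glycoproteins until they are folded, had 1419 ± 158 and 919 ± 47.2 CPM in the hepatoblast libraries, 1297 ± 94.0 and 752 ± 40.4 CPM in those of Diff. hepatocytes and 1162 ± 201 and 771 ± 39.1 CPM in those of mature hepatocytes. For Canx the hepatoblast libraries lay above all others, at a log2 fold change of −0.29 (SE 0.09, adjusted p = 0.0105) in Diff. hepatocytes. Pdia3, the isomerase that works with both lectins, and its relatives Pdia4 and Pdia6 had log2 fold changes against hepatoblasts of −0.06 to −0.40 in Diff. hepatocytes and of −0.30 to −0.68 in mature hepatocytes. P4hb, protein disulfide isomerase itself and also a subunit of the enzyme that hydroxylates collagen, had 1634 ± 309.8, 1647 ± 158 and 1936 ± 92.6 CPM in hepatoblasts, Diff. hepatocytes and mature hepatocytes.

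For the 6 genes the median log2 fold change was −0.21, −0.29 and 0.08 in the 3 comparisons by edgeR. At an unadjusted p under 0.05, none was higher and 2 were lower in Diff. hepatocytes against hepatoblasts, none was higher and 4 were lower in mature hepatocytes against hepatoblasts, and 1 was higher and 0 lower in Diff. hepatocytes against mature hepatocytes. DESeq2 called 0 in each. With library totals Calr, Canx, Pdia3, Pdia4 and Pdia6 were called lower in mature hepatocytes against hepatoblasts, and the median of the 6 was −1.13, which relative to all genes was −0.13. The Pdia6 difference was the most negative there, −1.52, or −0.52 relative to all genes.

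The summed level of the 15 folding members differed between groups by one scale and not by the other. In TPM it was 8755, 10556, 9915 and 10176 in the hepatoblast libraries, 7235, 6069, 6579 and 6520.3 in those of Diff. hepatocytes and 3853, 4255, 3561 and 2952 in those of mature hepatocytes. The groups did not overlap on this scale, and the mean was 1.49 times lower in Diff. hepatocytes (log2 ratio −0.58, SD 0.16) and 2.69 times lower in mature hepatocytes (−1.43, SD 0.25) than in hepatoblasts. In TMM-scaled CPM the sums were 9802 ± 1389, 9313 ± 612 and 8848 ± 939, and the log2 ratios −0.07 and −0.15. TPM are shares of all transcripts of a library, so a few very abundant transcripts lower all others. By TPM, P4hb took 21.3% of the sum in Diff. hepatocytes and 26.1% in mature hepatocytes, and Hspa5 took 17.3% and 12.8%.

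Levels of all 36 members were ordered in TPM. In hepatoblasts P4hb (1968 ± 220.1 TPM), Calr (1708 ± 110.5 TPM), Hspa5 (1382 ± 113 TPM) and Hsp90b1 (1231 ± 133 TPM) led, and the last 2, Trib3 (9.38 ± 8.41 TPM) and Chac1 (5.11 ± 6.91 TPM), were integrated stress response targets. P4hb and Calr lay closer together than their SDs add up to, and so did Hspa5 and Hsp90b1. In Diff. hepatocytes the transcription factor Atf5 stood first at 1614 ± 129 TPM, followed by P4hb (1404 ± 128 TPM), Hspa5 (1143 ± 89.9 TPM) and Calr (1101 ± 102 TPM). Atf5 and P4hb were within their SDs of each other, as were Hspa5 and Calr. Mature hepatocytes had P4hb (954 ± 107 TPM), Calr (569 ± 106 TPM), Hspa5 (469 ± 83.7 TPM) and Hsp90b1 (342 ± 60.2 TPM) at the top and Asns (2.94 ± 1.29 TPM), Psat1 (1.32 ± 0.336 TPM) and Phgdh (0.462 ± 0.166 TPM) at the bottom. Calr and Hspa5 overlapped within SD in that group, as did Hspa5 and Hsp90b1, and Psat1 and Phgdh did not. Hsp90b1 was also not set apart from Herpud1 (316 ± 60.3 TPM) or Atf5 (284 ± 99.5 TPM), which came next.

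Among genes of the translocon and of ER-associated degradation, Herpud1 was higher in both hepatocyte groups. Herpud1 (ENSMUSG00000031770, chr8:94386438-94395377, plus strand), an ER membrane protein of the degradation complex, had 131, 135, 147 and 147 CPM in the hepatoblast libraries, 387, 443, 475 and 453 CPM in those of Diff. hepatocytes and 639.9, 499, 375 and 596 CPM in those of mature hepatocytes. All hepatocyte libraries lay above the hepatoblasts, and the libraries of the hepatocyte groups overlapped. Herpud1 rose 3.14-fold in Diff. hepatocytes (log2 fold change 1.65, SE 0.15, adjusted p = 5.91e-07) and 3.77-fold in mature hepatocytes (1.91, SE 0.15, adjusted p = 6.25e-08). The difference between the hepatocyte groups was −0.26 (SE 0.14, adjusted p = 0.12), and with library totals 0.27.

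Edem1 and Syvn1 were called higher in mature hepatocytes than in hepatoblasts by TMM scaling, but their mean TPM were lower there (58.9 beside 68.2 and 46.0 beside 54.1). Syvn1 (ENSMUSG00000024807, chr19:6046576-6053712, plus strand), the ubiquitin ligase at the core of the degradation complex, had 63.0, 74.0, 79.1 and 87.7 CPM in the hepatoblast libraries, 70.6, 68.7, 72.7 and 75.9 CPM in those of Diff. hepatocytes and 231, 125, 162 and 124 CPM in those of mature hepatocytes. Mature hepatocytes lay above both other groups, which overlapped, and replicate 1 was the highest of them. The log2 fold change of Syvn1 was 1.08 (SE 0.17, adjusted p = 8.81e-05) against hepatoblasts, and Diff. hepatocytes were lower than mature hepatocytes by −1.15 (SE 0.18, adjusted p = 6.51e-05). Both calls were lost without mature hepatocytes replicate 1 (0.84 and −0.93), with edgeR's glmTreat (adjusted p = 0.294 and 0.199), with library totals (0.23 and −0.62) and with totals without the 50 most abundant genes (0.42 and −0.60). The first was also lost without hepatoblasts replicate 1 (0.99) and with a filter of 10 counts in every library (0.96). Its exons share 91 bases with Mrpl49 on the opposite strand, and while the libraries were described as strand-specific, the strand setting of the counts is not given in the sources used here.

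Edem1, which hands misfolded glycoproteins to degradation, had 127 ± 18.5, 149 ± 8.73 and 271 ± 23.6 CPM in hepatoblasts, Diff. hepatocytes and mature hepatocytes, and was called in mature hepatocytes against hepatoblasts (log2 fold change 1.09, SE 0.11, adjusted p = 9.39e-07). That call fell just under the threshold without hepatoblasts replicate 1 (1.00), and it was lost with edgeR's glmTreat (adjusted p = 0.174), library totals (0.25), totals without the 50 most abundant genes (0.43) and a filter of 10 counts in every library (0.97). Sel1l, the adaptor of Syvn1, had log2 fold changes of 0.72 in Diff. hepatocytes and 0.80 in mature hepatocytes against hepatoblasts, and of 0.41 and −0.04 with library totals. Sec61b, a small subunit of the channel through which proteins enter the ER, had 62.8 ± 6.91, 36.3 ± 4.75 and 51.4 ± 2.53 CPM in the order of the groups above. By TMM scaling it was lowest in Diff. hepatocytes, with no overlap with either other group (log2 fold change −0.79, SE 0.11, adjusted p = 2.91e-05 against hepatoblasts), but library totals called it lower in Diff. (−1.11) and in mature hepatocytes (−1.13), 0.02 apart, and by TPM the mature hepatocytes were lowest (57.1 beside 69.7 in Diff. hepatocytes). Pseudogenes share 10.1% of its 75-base sequences, so its counts are uncertain. The 5 genes had a median log2 fold change of 0.23, 1.08 and −0.50 in the 3 comparisons, and with library totals −0.09, 0.23 and 0.02.

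By TMM scaling Ern1 and Atf6 were higher than in hepatoblasts in both hepatocyte groups. In TPM this held in Diff. hepatocytes (means of 49.9 beside 18.2 and 35.4 beside 22.9). In mature hepatocytes the TPM of both genes overlapped those of hepatoblasts, with means of 19.8 for Ern1 and 21.2 for Atf6. Ern1 (ENSMUSG00000020715, chr11:106394650-106487852, minus strand), the sensor that splices the Xbp1 transcript, had 36.5, 44.6, 46.4 and 43.6 CPM in the hepatoblast libraries, 156, 149.8, 171 and 194 CPM in those of Diff. hepatocytes and 121, 108, 126 and 105 CPM in those of mature hepatocytes. The 3 groups did not overlap, with Diff. hepatocytes highest. Ern1 rose 3.91-fold in Diff. hepatocytes (log2 fold change 1.97, SE 0.11, adjusted p = 9.85e-09) and 2.69-fold in mature hepatocytes (1.43, SE 0.11, adjusted p = 5.52e-08). Diff. hepatocytes against mature hepatocytes gave 0.54 (SE 0.11, adjusted p = 0.000542), which was not called. With library totals and with totals without the 50 most abundant genes the call in mature hepatocytes was lost (0.58 and 0.76), and the hepatocyte groups were called different (1.07 and 1.10).

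Atf6 (ENSMUSG00000026663, chr1:170704674-170867771, minus strand), a sensor that is itself cut to release a transcription factor, had 60.0, 63.7, 63.1 and 55.0 CPM in the hepatoblast libraries, 120.1, 131, 132 and 152 CPM in those of Diff. hepatocytes and 129, 121, 147 and 163 CPM in those of mature hepatocytes. Both hepatocyte groups lay above all hepatoblast libraries and overlapped each other. Its log2 fold change was 1.15 (SE 0.11, adjusted p = 1.02e-06) in Diff. hepatocytes and 1.21 (SE 0.11, adjusted p = 2.7e-07) in mature hepatocytes. These calls were lost with glmTreat (adjusted p = 0.118 and 0.0251) and with library totals (0.82 and 0.35), the second also with totals without the 50 most abundant genes (0.54). Its relative Atf6b was not called, with log2 fold changes of −0.16 and −0.40, and with library totals it was called lower in mature hepatocytes (−1.25). Eif2ak3, which encodes PERK, had 23.4 ± 2.77, 33.1 ± 0.616 and 27.9 ± 3.63 CPM in hepatoblasts, Diff. hepatocytes and mature hepatocytes, at a log2 fold change of 0.50 (SE 0.11, adjusted p = 0.00115) in Diff. hepatocytes. Eif2ak3 shares 485 exon bases with a gene on the opposite strand. In Diff. hepatocytes against mature hepatocytes edgeR and DESeq2 called 0 of the 4 sensors, and 2 were higher at an unadjusted p under 0.05 from edgeR. Their median log2 fold change was 0.82, 0.74 and 0.24 in the 3 comparisons, and with library totals 0.50, −0.12 and 0.77.

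**Figure D2:**
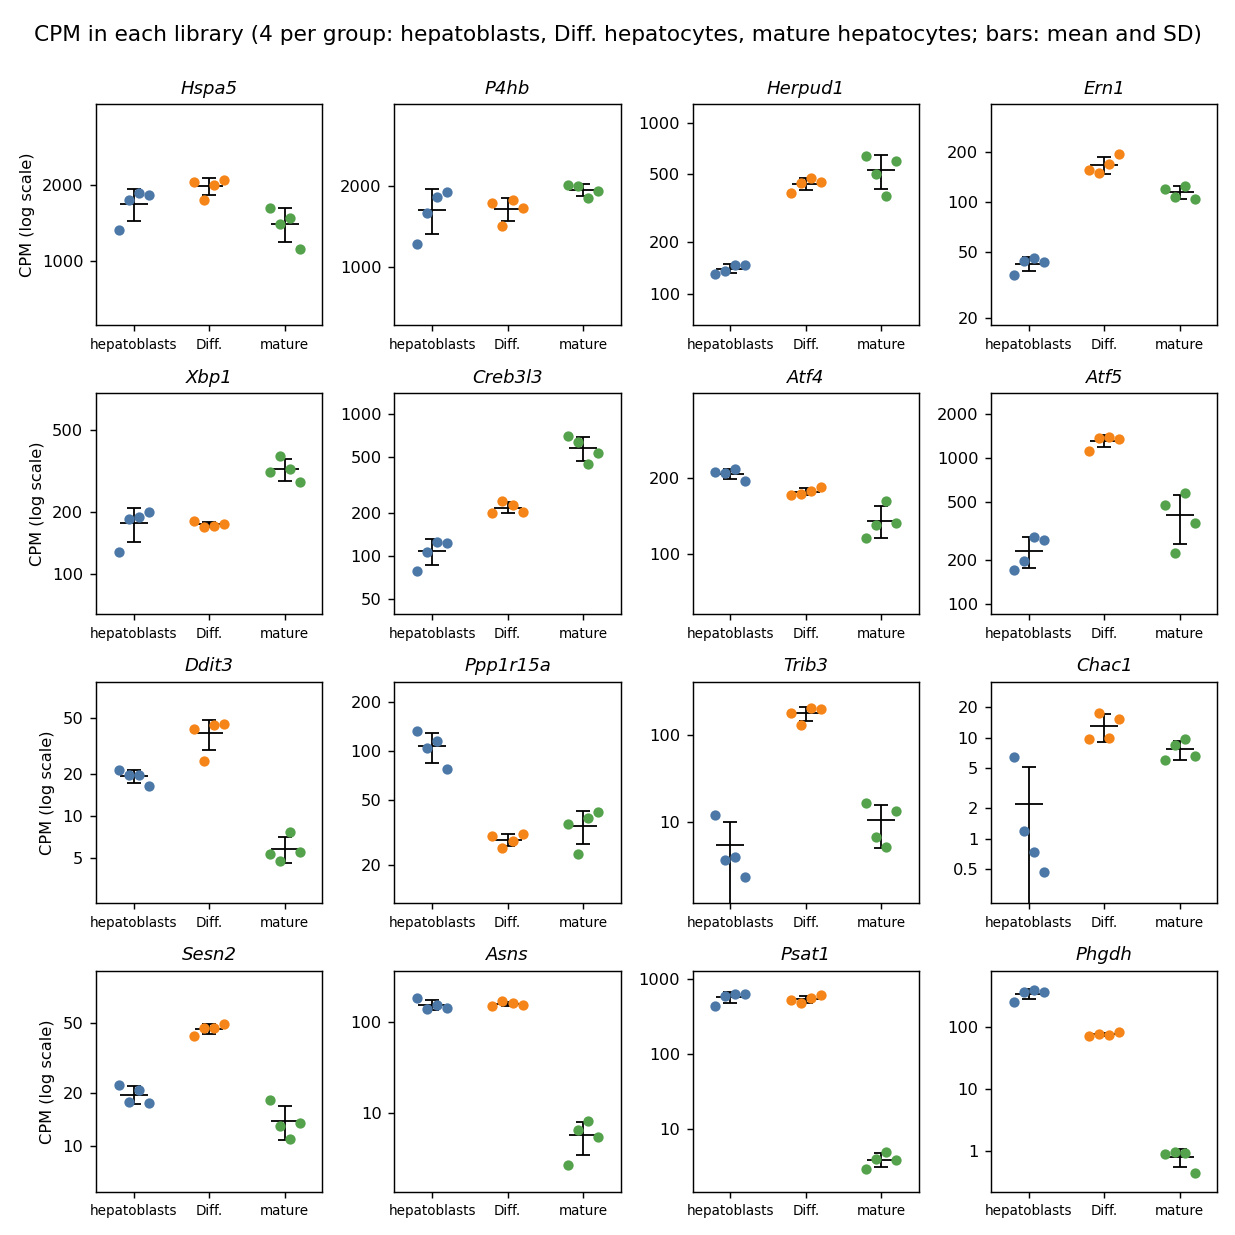
CPM (y axis, log scale) of 16 members in each of the 12 libraries, by group on the x axis; points are libraries, bars the mean and SD of 4 libraries. Atf5 and Trib3 are highest in Diff. hepatocytes, Creb3l3 in mature hepatocytes, and Asns, Psat1 and Phgdh are no higher than 8.05 CPM in any mature hepatocyte library.

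Transcription factors of the response differed in which group held the highest level. Xbp1 (ENSMUSG00000020484, chr11:5520659-5525893, plus strand), whose spliced transcript encodes an activator of chaperone and degradation genes, had 128, 185, 189 and 200.3 CPM in the hepatoblast libraries, 180.0, 169, 171 and 175 CPM in those of Diff. hepatocytes and 310.5, 374, 320.4 and 277 CPM in those of mature hepatocytes. By TMM scaling mature hepatocytes lay above both other groups, and those overlapped. The log2 fold change was 0.87 (SE 0.13, adjusted p = 5.26e-05) in mature hepatocytes against hepatoblasts and −0.88 (SE 0.13, adjusted p = 6.03e-05) in Diff. hepatocytes against mature hepatocytes, and neither passed the fold change threshold. Against hepatoblasts, Diff. hepatocytes gave −0.02 (SE 0.13, adjusted p = 0.93). With library totals the values were 0.04, −0.36 and −0.33 in the same order. In TPM hepatoblasts were highest, with 187 ± 23.6 in hepatoblasts, 131 ± 6.38 after culture and 140.1 ± 30.6 in mature hepatocytes. Counts per gene hold spliced and unspliced Xbp1 together. For the 5 transcription factors the median log2 fold change was 1.01, 0.82 and 0.39 in the 3 comparisons, and with library totals 0.69, −0.02 and 0.91.

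Creb3l3 (CREBH, ENSMUSG00000035041, chr10:81084324-81098874, minus strand), the ER-bound factor of liver that acts on lipid and iron genes, had 78.9, 108, 127 and 124 CPM in the hepatoblast libraries, 203, 243, 229 and 205 CPM in those of Diff. hepatocytes and 696, 629.9, 443 and 534 CPM in those of mature hepatocytes. No groups overlapped, and the order was hepatoblasts, Diff. hepatocytes, mature hepatocytes. In mature hepatocytes it rose 5.26-fold over hepatoblasts (log2 fold change 2.39, SE 0.17, adjusted p = 2.91e-08), and in Diff. hepatocytes it was 2.61-fold lower than in mature hepatocytes (−1.39, SE 0.16, adjusted p = 6.97e-06). The latter call was lost with edgeR's glmTreat (adjusted p = 0.0159), library totals (−0.86) and totals without the 50 most abundant genes (−0.83).

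The difference of Creb3l3 between Diff. hepatocytes and hepatoblasts was at the threshold (1.01, SE 0.16, adjusted p = 0.000143). It was no longer called without hepatoblasts replicate 1 (0.89), without Diff. hepatocytes replicate 2 (0.94) or 3 (0.99), or without mature hepatocytes replicate 1 (0.99), 2 (1.00), 3 (0.99) or 4 (0.99), nor without the 3 libraries that stood apart (0.92). It was also lost with library totals (0.70), totals without the 50 most abundant genes (0.90), only the 8 libraries compared (1.00), filters of 1 count in any (0.98) or 10 counts in every library (0.99), and glmTreat (adjusted p = 0.657 by edgeR). The adjusted p of edgeR was between 0.000103 and 0.000684 without any of these single libraries.

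Described targets of Creb3l3 were read beside it. Of 6 such genes, 6 were called higher in Diff. hepatocytes against hepatoblasts, beside 14.9% of all genes. In mature hepatocytes against hepatoblasts 5 of them were called higher (all genes 20.1%) and 0 lower (24.7%). In Diff. hepatocytes against mature hepatocytes 2 of them were called higher (20.2%) and 2 lower (15.6%). Median log2 fold changes were 6.11, 8.12 and −0.05 (5.80, 7.26 and 0.50 with library totals), or 5.72, 6.86 and −0.05 with Fgf21, which had 0 counts in each hepatoblast library, set to its bound. Apoa4, an apolipoprotein, had 0.129, 0.209, 0.194 and 0.232 CPM in the hepatoblast libraries, 112, 479.8, 171 and 238 CPM in those of Diff. hepatocytes and 89.0, 101, 119 and 130.1 CPM in those of mature hepatocytes. Its libraries were low in hepatoblasts and overlapped between the other two groups, at a log2 fold change of 1.19 (SE 0.33, adjusted p = 0.00638) in Diff. hepatocytes against mature hepatocytes. Hamp, the iron hormone hepcidin, went the other way there, with means of 112 ± 86.8 and 1444 ± 688 CPM in Diff. and mature hepatocytes (−3.69, SE 0.53, adjusted p = 3.8e-05). Counts of Apoc2 were low, with means of 0.491, 1.97 and 0.447 CPM in hepatoblasts, Diff. hepatocytes and mature hepatocytes. It was called higher in Diff. hepatocytes in both comparisons and was not called in mature hepatocytes against hepatoblasts. Fgf21 averaged 4.27 and 8.58 CPM in Diff. and mature hepatocytes. Many other factors act on the 6 genes.

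Atf4 (ENSMUSG00000042406, chr15:80255184-80257541, plus strand), the factor translated when PERK or the amino acid sensors are active, had 211, 210.1, 218 and 195 CPM in the hepatoblast libraries, 172, 173, 178 and 184 CPM in those of Diff. hepatocytes and 115, 130.2, 162 and 133 CPM in those of mature hepatocytes. No groups overlapped, and hepatoblasts were highest. The log2 fold changes were −0.24 (SE 0.10, adjusted p = 0.0477), −0.63 (SE 0.10, adjusted p = 5.94e-05) and 0.39 (SE 0.10, adjusted p = 0.00325) in the 3 comparisons, and none was called. With library totals mature hepatocytes were called lower than hepatoblasts (−1.48). Atf4 is controlled mainly in translation, which RNA levels do not measure.

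Atf5 (ENSMUSG00000038539, chr7:44812256-44816658, minus strand), a relative controlled in the same way, had 170.2, 197, 287 and 273 CPM in the hepatoblast libraries, 1129, 1387, 1395 and 1365 CPM in those of Diff. hepatocytes and 477, 223, 574 and 360.0 CPM in those of mature hepatocytes. Diff. hepatocytes lay above all other libraries, and the other two groups overlapped through mature hepatocytes replicate 2. Atf5 rose 5.69-fold over hepatoblasts in Diff. hepatocytes (log2 fold change 2.51, SE 0.26, adjusted p = 2.62e-06) and was 3.23-fold higher than in mature hepatocytes (1.69, SE 0.25, adjusted p = 5.55e-05). In mature hepatocytes against hepatoblasts it was 0.82 (SE 0.25, adjusted p = 0.00924), and 1.01 with a call without mature hepatocytes replicate 2. Atf5 shares 164 exon bases with genes on the opposite strand.

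Ddit3 (CHOP, ENSMUSG00000025408, chr10:127290774-127296288, plus strand), the factor tied to cell death under lasting ER stress, had 21.4, 19.6, 19.5 and 16.4 CPM in the hepatoblast libraries, 42.0, 24.7, 44.5 and 45.1 CPM in those of Diff. hepatocytes and 5.35, 4.75, 7.59 and 5.46 CPM in those of mature hepatocytes. In CPM the groups did not overlap, with Diff. hepatocytes highest and their replicate 2 apart from the others on the low side. In TPM that replicate (35.8) fell within the range of the hepatoblasts (31.2 to 48.7), so these groups overlapped. In Diff. hepatocytes Ddit3 was 6.73-fold above mature hepatocytes (log2 fold change 2.75, SE 0.20, adjusted p = 7.45e-08) and 3.32-fold lower in mature hepatocytes than in hepatoblasts (−1.73, SE 0.20, adjusted p = 3.47e-06). Against hepatoblasts the Diff. hepatocytes were at the threshold (1.02, SE 0.18, adjusted p = 0.000333). That call was lost without Diff. hepatocytes replicate 1 (0.99), 3 (0.96) or 4 (0.95) and without hepatoblasts replicate 4 (0.95). It was also lost with a replicate block (0.99), library totals (0.69), totals without the 50 most abundant genes (0.91), a filter of 1 count in any library (1.00) and edgeR's glmTreat (adjusted p = 0.614). An overlapping second Ddit3 entry of the annotation shares 105 exon bases on the same strand, where reads could be lost, and 81 are shared with Gm4189 and Mars on the opposite strand.

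Of the 7 targets of the integrated stress response, 3 were called higher and 2 lower, 0 and 4, and 5 and 0 in the 3 comparisons. Of all genes, 14.9% and 14.0%, 20.1% and 24.7%, and 20.2% and 15.6% were called so. The median log2 fold change of the 7 targets was 0.03, −1.61 and 4.11, and with library totals −0.30, −2.49 and 4.66. With library totals the calls were 1 and 2, 0 and 5, and 5 and 0. Of all genes, 11.2% and 20.4%, 11.3% and 44.5%, and 30.9% and 9.99% were then called. Without the 3 libraries that stood apart, 2 targets were called higher and 4 lower in mature hepatocytes against hepatoblasts. Trib3 (ENSMUSG00000032715, chr2:152337422-152344032, minus strand), a pseudokinase induced by Atf4 and CHOP, had 11.9, 3.61, 3.95 and 2.32 CPM in the hepatoblast libraries, 182, 130.4, 204 and 200.5 CPM in those of Diff. hepatocytes and 16.5, 6.74, 5.19 and 13.3 CPM in those of mature hepatocytes. All Diff. hepatocyte libraries were far above the rest, and the other two groups overlapped through hepatoblasts replicate 1. Trib3 rose 32.8-fold over hepatoblasts (log2 fold change 5.04, SE 0.50, adjusted p = 1.7e-06) and was 17.2-fold higher than in mature hepatocytes (4.11, SE 0.48, adjusted p = 6.02e-06). Without hepatoblasts replicate 1 the first was 54.5-fold (5.77, SE 0.39, adjusted p = 5.89e-08). Mature hepatocytes against hepatoblasts gave 0.93 (SE 0.46, adjusted p = 0.0868), and without that library 1.64 (SE 0.36, adjusted p = 0.001), which was called.

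Chac1 (ENSMUSG00000027313, chr2:119351229-119354381, plus strand), an enzyme that breaks down glutathione, was the member with the largest SE. It had 6.48, 1.19, 0.745 and 0.464 CPM in the hepatoblast libraries, 9.60, 17.6, 9.82 and 15.4 CPM in those of Diff. hepatocytes and 6.03, 8.47, 9.63 and 6.64 CPM in those of mature hepatocytes. Hepatoblasts replicate 1 lay among the mature hepatocytes and the other 3 hepatoblast libraries below all others. The log2 fold change was 2.56 (SE 0.62, adjusted p = 0.00298) in Diff. hepatocytes against hepatoblasts and 1.79 (SE 0.62, adjusted p = 0.0184) in mature hepatocytes against hepatoblasts. Without hepatoblasts replicate 1 these were 4.01 (SE 0.34, adjusted p = 4.39e-07) and 3.24 (SE 0.34, adjusted p = 1.59e-06), both called. The first was not called without hepatoblasts replicate 2 (2.33, adjusted p = 0.0125) or 3 (2.25, adjusted p = 0.01), with only the 8 libraries compared (2.52, adjusted p = 0.0135), with glmTreat (adjusted p = 0.0224) or with library totals (2.16, adjusted p = 0.011), all by edgeR. The second was called by DESeq2 (1.78, adjusted p = 0.0056) and, by edgeR, with a filter of 1 count in any library (1.75, adjusted p = 0.00727). Hepatoblasts replicate 1 also had the highest erythroid sum, 2598 CPM, and whether the one bears on the other was not tested.

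Sesn2 (ENSMUSG00000028893, chr4:132492032-132510501, minus strand), which restrains growth signalling when leucine is short, had 19.6 ± 2.34, 46.3 ± 2.92 and 13.9 ± 3.02 CPM in hepatoblasts, Diff. hepatocytes and mature hepatocytes. Diff. hepatocytes lay above the other two groups, which overlapped. The log2 fold change was 1.24 (SE 0.13, adjusted p = 3.97e-06) against hepatoblasts and 1.73 (SE 0.14, adjusted p = 1.68e-07) against mature hepatocytes. The first call was lost with glmTreat (adjusted p = 0.0569) and library totals (0.91). In mature hepatocytes against hepatoblasts it was −0.49, and called lower with library totals (−1.36) and with totals without the 50 most abundant genes (−1.17).

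Ppp1r15a (ENSMUSG00000040435, chr7:45522916-45526268, minus strand), which brings a phosphatase that ends the integrated stress response, was called lower in both hepatocyte groups than in hepatoblasts. It had 132, 105, 115 and 77.8 CPM in the hepatoblast libraries, 30.1, 25.5, 28.2 and 31.2 CPM in those of Diff. hepatocytes and 35.7, 23.6, 38.8 and 42.5 CPM in those of mature hepatocytes. Hepatoblasts lay above both hepatocyte groups, which overlapped. Ppp1r15a was lower by a log2 fold change of −1.90 (SE 0.18, adjusted p = 1.32e-06) in Diff. hepatocytes and −1.61 (SE 0.18, adjusted p = 2.95e-06) in mature hepatocytes. In Diff. hepatocytes Phgdh was also called lower than in hepatoblasts, while Trib3, Chac1 and Sesn2 were called higher. In mature hepatocytes Asns, Psat1 and Phgdh were called lower as well, and Trib3 (0.93), Chac1 (1.79) and Sesn2 (−0.49) were not called. Ppp1r15a is also an early gene of cells under handling, and 9 such genes known from tissue dissociation were read beside it.

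Those 9 early genes were called lower in 9 of 9 cases in Diff. hepatocytes against hepatoblasts (all genes 14.0%) and in 8 of 9 in Diff. hepatocytes against mature hepatocytes (15.6%), with medians of −3.02 and −3.01. In mature hepatocytes against hepatoblasts 1 was called higher (all genes 20.1%) and 3 lower (24.7%), with a median of −0.42. With library totals 1 was called higher and 5 lower there, with a median of −1.27, or −0.27 relative to all genes. Fos had 384 ± 79.5, 4.55 ± 1.48 and 181 ± 51.4 CPM in hepatoblasts, Diff. hepatocytes and mature hepatocytes. Fosb, a relative of Fos, had 170.5, 234, 278 and 204 CPM in the hepatoblast libraries, 0.735, 0.344, 0.800 and 0.690 CPM in those of Diff. hepatocytes and 70.6, 52.0, 116 and 49.0 CPM in those of mature hepatocytes. The cultured cells were lowest in every library, and the groups did not overlap. Dusp1, a phosphatase of stress kinases, was 278 ± 80.1 CPM in mature hepatocytes and 63.5 ± 14.1 CPM in hepatoblasts (log2 fold change 2.13, SE 0.22, adjusted p = 1.33e-06). Whether isolation bears on Ppp1r15a was not tested.

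Asns, Psat1 and Phgdh, enzymes that make asparagine and serine, were high in hepatoblasts and Diff. hepatocytes and low in mature hepatocytes. Asns (ENSMUSG00000029752, chr6:7675169-7693254, minus strand) had 182, 141, 156 and 143 CPM in the hepatoblast libraries, 150.2, 169, 161 and 155 CPM in those of Diff. hepatocytes and 2.67, 6.42, 8.05 and 5.40 CPM in those of mature hepatocytes. Psat1 (ENSMUSG00000024640, chr19:15904678-15947337, minus strand) had 431, 592, 633 and 624 CPM in the hepatoblast libraries, 531, 472, 552 and 609.6 CPM in those of Diff. hepatocytes and 2.95, 4.04, 5.02 and 3.85 CPM in those of mature hepatocytes. Hepatoblasts and Diff. hepatocytes overlapped for both genes, and mature hepatocytes lay far below. In mature hepatocytes Asns was 27.4-fold lower than in hepatoblasts (log2 fold change −4.78, SE 0.24, adjusted p = 1e-09) and Psat1 143-fold lower (−7.16, SE 0.20, adjusted p = 5.97e-12). Diff. hepatocytes were 28.0-fold higher than mature hepatocytes for Asns (4.81, SE 0.24, adjusted p = 1.92e-09) and 136-fold higher for Psat1 (7.08, SE 0.20, adjusted p = 1.02e-11). Against hepatoblasts they gave 0.03 (SE 0.19) for Asns and −0.08 (SE 0.15) for Psat1, and with library totals −0.30 for Asns.

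Phgdh (ENSMUSG00000053398, chr3:98313170-98339990, minus strand), the first enzyme of serine synthesis, had 255, 368, 397 and 362 CPM in the hepatoblast libraries, 71.2, 76.5, 72.9 and 82.8 CPM in those of Diff. hepatocytes and 0.891, 0.963, 0.934 and 0.435 CPM in those of mature hepatocytes. No groups overlapped. Unlike Psat1, the next enzyme of the same path, Phgdh was called lower in Diff. hepatocytes against hepatoblasts (4.55-fold, log2 fold change −2.19, SE 0.15, adjusted p = 5.11e-08). It was 426-fold lower in mature hepatocytes than in hepatoblasts (−8.74, SE 0.22, adjusted p = 2.82e-12) and Diff. hepatocytes were 93.7-fold above mature hepatocytes (6.55, SE 0.21, adjusted p = 3.13e-11). Pseudogenes share 35.8% of its 75-base sequences, so its counts are uncertain.

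Promoters were read for motifs known from these responses, because members with the same motif can be set side by side. RefSeq windows from 250 bases before to 50 bases after a gene's start, on GRCm38.p6, were found for 33 of the 36 members (36 windows). The members Hyou1, Manf and Atf6 had no entry. The motifs, searched on both strands, were ERSE, read as CCAAT, any 9 bases and CCACG, ERSE-II, read as ATTGG, any base and CCACG, the C/EBP-ATF element, read as TGATG, any base and AA, and the UPRE core TGACGTG. ERSE was found in 8 members (Calr, Canx, Creld2, Dnajc3, Hsp90b1, Hspa5, Pdia6 and Syvn1) and in 0.119% of all 32851 windows, and ERSE-II in 2 members (Dnajb11 and Herpud1) and 0.0365% of windows. The C/EBP-ATF element was found in 4 members (Asns, Chac1, Herpud1 and Trib3) and 3.97% of windows, and the UPRE core in Hspa5 and 2.01% of windows. No match of one motif overlapped a match of another in the member windows. A match describes these letters and is not evidence of binding.

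Of the 8 members with ERSE, Syvn1 was called higher in mature hepatocytes than in both other groups by TMM scaling, and no other was called in any comparison. With library totals the calls of Syvn1 were lost, Hspa5, Hsp90b1, Calr, Canx and Pdia6 were called lower in mature hepatocytes than in hepatoblasts, and Hspa5 was called higher in Diff. than in mature hepatocytes. Of the 4 with a C/EBP-ATF element, Chac1, Herpud1 and Trib3 were called higher in Diff. hepatocytes against hepatoblasts, and Asns, with 0.03, was not. Of all genes, 14.9% were called higher there. In mature hepatocytes against hepatoblasts Herpud1 was called higher (1.91) and Asns lower (−4.78), and Chac1 and Trib3 were not called. In Diff. against mature hepatocytes Trib3 (4.11) and Asns (4.81) were called higher, and Chac1 and Herpud1 were not called. With library totals the call of Chac1 was lost (2.16), and the other calls of these 4 were kept. Shown are the 6 members with ERSE or a C/EBP-ATF element that had the largest absolute log2 fold change between the hepatocyte groups, with matches in capitals. Windows are written 5′ to 3′ on the strand of the gene: Asns chr6:7693160-7693459 (minus strand, C/EBP-ATF element 23 to 16 bases before the start), Trib3 chr2:152344011-152344310 (minus strand, C/EBP-ATF element on the other strand, 14 to 21 bases after the start), Syvn1 chr19:6046326-6046625 (plus strand, ERSE), Chac1 chr2:119350992-119351291 (plus strand, C/EBP-ATF element on the other strand), Hspa5 chr2:34771840-34772139 (plus strand, UPRE core and then ERSE) and Pdia6 chr12:17266339-17266638 (plus strand, ERSE).
Asns: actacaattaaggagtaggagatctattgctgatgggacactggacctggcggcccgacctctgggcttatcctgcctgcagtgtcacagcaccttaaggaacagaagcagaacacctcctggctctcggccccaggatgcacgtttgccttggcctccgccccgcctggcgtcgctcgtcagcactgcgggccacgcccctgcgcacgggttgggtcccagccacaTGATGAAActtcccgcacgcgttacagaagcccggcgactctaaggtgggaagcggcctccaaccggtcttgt
Trib3: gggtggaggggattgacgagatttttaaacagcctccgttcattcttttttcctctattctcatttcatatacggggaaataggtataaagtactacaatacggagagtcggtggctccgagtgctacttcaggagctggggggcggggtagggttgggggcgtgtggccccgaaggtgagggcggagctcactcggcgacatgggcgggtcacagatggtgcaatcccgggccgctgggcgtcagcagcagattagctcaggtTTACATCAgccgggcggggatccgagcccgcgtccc
Syvn1: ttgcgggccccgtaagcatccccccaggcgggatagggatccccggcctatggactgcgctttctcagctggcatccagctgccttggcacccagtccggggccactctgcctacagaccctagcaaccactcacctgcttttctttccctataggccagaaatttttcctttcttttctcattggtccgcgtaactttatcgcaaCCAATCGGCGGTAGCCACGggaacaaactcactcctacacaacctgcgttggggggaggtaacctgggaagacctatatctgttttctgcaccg
Chac1: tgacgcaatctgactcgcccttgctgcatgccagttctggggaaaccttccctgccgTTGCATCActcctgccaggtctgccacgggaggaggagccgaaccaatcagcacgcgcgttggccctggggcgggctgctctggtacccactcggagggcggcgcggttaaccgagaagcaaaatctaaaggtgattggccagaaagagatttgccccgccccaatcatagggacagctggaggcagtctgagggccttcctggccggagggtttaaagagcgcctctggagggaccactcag
Hspa5: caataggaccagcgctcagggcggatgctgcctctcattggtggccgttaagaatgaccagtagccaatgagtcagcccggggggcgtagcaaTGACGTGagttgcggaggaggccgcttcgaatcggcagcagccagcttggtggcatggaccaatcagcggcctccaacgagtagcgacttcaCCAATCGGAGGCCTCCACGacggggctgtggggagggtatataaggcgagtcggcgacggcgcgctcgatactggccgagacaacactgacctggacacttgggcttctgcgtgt
Pdia6: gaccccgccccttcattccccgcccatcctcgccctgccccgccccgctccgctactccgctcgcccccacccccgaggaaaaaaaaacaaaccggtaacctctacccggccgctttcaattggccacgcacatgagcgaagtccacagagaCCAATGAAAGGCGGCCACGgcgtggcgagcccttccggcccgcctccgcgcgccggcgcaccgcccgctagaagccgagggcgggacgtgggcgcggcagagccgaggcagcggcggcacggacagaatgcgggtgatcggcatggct

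Other genes of the same pathways were read from lists. Of all genes, 14.9%, 20.1% and 20.2% were called higher in the 3 comparisons, and 14.0%, 24.7% and 15.6% lower. With library totals these shares were 11.2%, 11.3% and 30.9% higher, and 20.4%, 44.5% and 9.99% lower. The counts of each list stand beside these shares. A count near its share, such as 7 of 32 called higher in mature hepatocytes against hepatoblasts, does not set a list apart from all genes. Of 32 other integrated stress response genes, 10 were called higher and 2 lower in Diff. hepatocytes against hepatoblasts (median log2 fold change 0.41), 7 higher and 12 lower in mature hepatocytes against hepatoblasts (−0.30), and 15 higher and 4 lower in Diff. hepatocytes against mature hepatocytes (0.92). Slc7a11, a cystine importer induced by Atf4, had 2.03, 0.418, 0.550 and 0.265 CPM in the hepatoblast libraries and 34.0, 40.6, 27.9 and 33.0 CPM after culture (log2 fold change 5.37, SE 0.44, adjusted p = 2.82e-07). The groups did not overlap, and hepatoblasts replicate 1 was the highest hepatoblast library, as for Trib3 and Chac1. Without it the log2 fold change was 6.35 (SE 0.21, adjusted p = 1.71e-10 by edgeR). Stc2, a secreted glycoprotein of the same arm, was at least 225-fold higher in Diff. hepatocytes (42.7 ± 14.1 CPM) than in mature hepatocytes, whose libraries held 3 counts or fewer. Gdf15, a stress hormone, was lower in Diff. hepatocytes (13.4 ± 0.648 CPM) than in hepatoblasts (98.4 ± 17.9 CPM, −2.88) and mature hepatocytes (145 ± 78.8 CPM, −3.44). Among called genes whose 8 compared libraries averaged 10 CPM or more, Cebpb, a partner of Atf4, was the highest in mature hepatocytes against hepatoblasts (3.19) and Slc7a1, an arginine carrier, the lowest (−5.90). Slc7a1 had 69.8 CPM in hepatoblasts replicate 1 and 15.3 to 24.7 CPM in the other hepatoblast libraries, and without that library it was −5.25 (SE 0.26, adjusted p = 1.17e-09 by edgeR), with its mean under 10 CPM. With library totals the medians of this list were 0.08, −1.17 and 1.45, with 8 and 2, 4 and 18, and 19 and 2 called.

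Of 19 other ER-associated degradation genes, 2 were called higher and 0 lower in Diff. hepatocytes against hepatoblasts, 9 higher and 0 lower in mature hepatocytes against hepatoblasts, and 0 higher and 2 lower in Diff. hepatocytes against mature hepatocytes, with medians of 0.28, 0.70 and −0.36, or −0.05, −0.15 and 0.16 with library totals, so that each sign turned. Relative to the median of all genes they were then 0.28, 0.85 and −0.45. Library totals called 1 and 0, 1 and 1, and 0 and 1. At an unadjusted p under 0.05 from edgeR the pairs were 9 and 4, 17 and 1, and 2 and 13, and DESeq2 called 2 and 0, 8 and 0, and 0 and 2. Derl1, a channel for proteins leaving the ER, was 201 ± 10.1 CPM in Diff. hepatocytes and 79.9 ± 3.82 CPM in hepatoblasts (log2 fold change 1.33, SE 0.07, adjusted p = 1.01e-08). Os9, a lectin of degradation, was 440.2 ± 9.20 CPM in mature hepatocytes and 146 ± 19.5 CPM in hepatoblasts (1.60), and Edem2, a mannosidase, 29.1 ± 1.24 and 84.9 ± 6.77 CPM in Diff. and mature hepatocytes (−1.55).

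Of 20 other ER folding factors, 1 was called higher and 2 lower in Diff. hepatocytes against hepatoblasts, 2 and 4 in mature hepatocytes against hepatoblasts, and 4 and 1 in Diff. hepatocytes against mature hepatocytes, with medians of −0.18, −0.08 and −0.06, or −0.50, −0.92 and 0.46 with library totals, which called 1 and 2, 1 and 9, and 4 and 1. Of the 2 called higher in mature hepatocytes against hepatoblasts, Sil1 (1.00) was not called without hepatoblasts replicate 1 (0.89). DESeq2 called 1 of the list higher there. The oxidases that recharge the disulfide isomerases went apart between the hepatocyte groups. Ero1l was 84.6 ± 3.20 and 19.6 ± 2.74 CPM in Diff. and mature hepatocytes (log2 fold change 2.11, SE 0.10), and Ero1lb was 20.2 ± 2.61 and 102 ± 12.6 CPM (−2.34, SE 0.13), with 6.98 ± 0.886 CPM in hepatoblasts. The prolyl isomerases Fkbp14, in Diff. hepatocytes, and Fkbp11, in mature hepatocytes, were lower than in hepatoblasts (−1.79 and −2.26).

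Of 28 genes of the translocon, signal peptidase and oligosaccharyltransferase, 0 were called higher and 4 lower in Diff. hepatocytes against hepatoblasts, 3 and 5 in mature hepatocytes against hepatoblasts, and 0 and 3 in Diff. hepatocytes against mature hepatocytes, with medians of −0.32, −0.37 and 0.04, or −0.64, −1.21 and 0.57 with library totals, which called 0 and 4, 0 and 16, and 3 and 0. At an unadjusted p under 0.05 from edgeR these were 2 and 15, 6 and 16, and 7 and 10, and DESeq2 called 0 and 4, 3 and 5, and 0 and 2. Ssr2, of the translocon-associated complex, was lowest in the first (−1.15) and second (−1.77), Srpr, the receptor of the signal recognition particle, highest in the second (1.19), and Sec63 lowest in the third (−1.06). Of 11 other sensors and proteases of the stress response, 10 were tested, and 0 were called in Diff. hepatocytes against hepatoblasts (2 higher and 2 lower at an unadjusted p under 0.05 from edgeR, 0 by DESeq2), 1 higher and 2 lower in mature hepatocytes against hepatoblasts, and 2 higher and 0 lower in Diff. hepatocytes against mature hepatocytes. Their medians were 0.05, −0.22 and 0.41, or −0.28, −1.07 and 0.94 with library totals, which called 0 and 1, 0 and 5, and 5 and 0. Eif2ak4, the kinase that senses uncharged tRNA, had 46.5 ± 6.16, 37.2 ± 3.50 and 15.8 ± 1.77 CPM in hepatoblasts, Diff. hepatocytes and mature hepatocytes, and Creb3 was higher in mature hepatocytes than in hepatoblasts (1.01). DESeq2 and the fit without the 3 libraries called 0 of this list higher there, where 3 were higher at an unadjusted p under 0.05 from edgeR.

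Chaperones outside the ER and the proteins that the ER folds were read for comparison. Of 15 cytosolic chaperones, 1 was called higher and 3 lower, 2 and 3, and 0 and 2 in the 3 comparisons, with medians of −0.19, −0.73 and 0.27. With library totals the medians were −0.51, −1.58 and 0.80, and the calls 1 and 4, 1 and 10, and 6 and 0. In the last comparison the 2 lower calls were then lost, and 6 genes of the list were called higher. Against hepatoblasts, Hsp90aa1 was lower in Diff. (−1.24) and mature hepatocytes (−1.56), Bag3 higher in mature hepatocytes (1.45), and Dnaja1 lower in Diff. than in mature hepatocytes (−1.22). Of 9 mitochondrial chaperones and proteases, 3 were called higher and 0 lower, 1 and 2, and 0 and 0, with medians of 0.08, 0.54 and 0.46, or −0.24, −0.31 and 0.99 with library totals, which called 2 and 0, 0 and 3, and 4 and 0. By TMM scaling in the last comparison, 5 were higher and 2 lower at an unadjusted p under 0.05 from edgeR, and DESeq2 called 0. Clpx was the highest of them in Diff. (1.65, SE 0.38) and mature (1.96, SE 0.38) hepatocytes against hepatoblasts. Its values in mature hepatocytes spread from 81.3 to 403 CPM (218 ± 148 CPM). Htra2 was the lowest in mature hepatocytes against hepatoblasts (−1.03), a call lost without hepatoblasts replicate 1 (−0.80). Of 14 secreted plasma proteins, 9 were called higher and 0 lower, 13 and 0, and 1 and 4, with medians of 1.26, 1.62 and 0.06, or 0.95, 0.79 and 0.59 with library totals, which called 7 and 0, 4 and 0, and 4 and 1. Without hepatoblasts replicate 1, the calls against hepatoblasts of Trf (0.91) and Apoa1 (0.95) in Diff. and of Apob (0.93) in mature hepatocytes were lost. Hpx, the carrier of free heme, had 699.7 ± 137, 8534 ± 687 and 5795 ± 1368 CPM in hepatoblasts, Diff. hepatocytes and mature hepatocytes (3.61 and 3.05 against hepatoblasts), Ahsg was highest in Diff. against mature hepatocytes (1.31) and Apoa2 lowest (−2.06). Beside these, the 15 folding members stayed between −0.68 and 1.24 against hepatoblasts, and with library totals 7 of them were called lower in mature hepatocytes (46.7%, beside 44.5% of all genes).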

How the data were processed

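Counts of reads per gene were used as deposited, without normalisation. Per the notes and methods of the submitters, the authors checked reads with FastQC 0.11.2, mapped them to GRCm38 and made the count table over Ensembl 92 genes with STAR 2.5.2b, and used Picard 2.10.2 and DESeq2 1.22.2. The strand setting of STAR is not given in the sources used here. Exon lengths, positions and shared sequence came from GENCODE M21, which held 53620 of the 53715 identifiers.

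Genes with over 10 counts in any library were kept. All 12 libraries were fitted together by edgeR 4.0.16, with limma 3.58.1 under R 4.3.3, using glmQLFit on TMM library sizes, without covariates. The adjusted p values are those of edgeR, over all genes tested. DESeq2 1.42.0, glmTreat, other scalings and filters, the groups compared alone, a replicate block, a threshold without fold change and leave-one-out fits were tried. On simulated counts with 200 of 17779 genes changed at least 4-fold, edgeR called 200 of the 200 and 1 other. The simulation gave every gene the same spread, changed only well-counted genes and held no shift in the most abundant genes. It therefore does not test calls near the threshold, noisy or low genes, or the choice of scaling. A library at 0 counts allows up to 3 counts, or 0.0896 to 0.206 CPM, for counting error only.

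Members and lists (10 pathway lists and 8 cell type marker lists) were chosen with earlier results of these data known. Values in every library were given for Hspa5, Xbp1, Creb3l3, Atf4 and Ddit3 and, per comparison, for the 4 called members with the highest and the 4 with the lowest log2 fold change; from pathway lists the extreme called genes with a mean of at least 10 CPM were named. Other values were chosen after they were seen. Single values were set apart by Dixon's test for 4 values (0.829). The 3 libraries left out together were not chosen by this test. Promoters were RefSeq sequences. The value of 1 cell type marker is not reported here.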

Additional observations from a re-analysis of the deposited data

Results flagged for a closer look

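In 13 of 135 groups of 4 libraries examined, 1 library lay apart from the other 3 by Dixon's test, where chance gives about 1 in 20, or 6.75. Hepatoblasts replicate 1 accounted for 8 of the 13. It was low for Hsp90b1 (1096 CPM against 1546 to 1552), Hyou1 (254 against 350.4 to 368), Creld2 (44.9 against 65.4 to 68.2) and Calr (1183 against 1488 to 1513). It was high for Trib3 (11.9 CPM against 2.32 to 3.95), Chac1 (6.48 against 0.464 to 1.19), the summed erythroid markers (2598 against 311 to 514) and the summed macrophage markers (378 against 89.7 to 109).

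The others were spread over 4 libraries. Diff. hepatocytes replicate 1 was low for Atf5 (1129 CPM against 1365 to 1395), and Diff. hepatocytes replicate 2 was low for Ddit3 (24.7 against 42.0 to 45.1). Mature hepatocytes replicate 4 was low for Manf (102 CPM against 145 to 152) and Phgdh (0.435 against 0.891 to 0.963). The summed mesenchymal markers were high in mature hepatocytes replicate 3 (65.4 CPM against 48.5 to 49.9). The cause of these differences was not tested.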

How the results depend on the processing

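Over 22 alternatives the 36 members gave 791 values per comparison. Of these 756, 748 and 780 kept their side of the threshold in Diff. hepatocytes against hepatoblasts (the first comparison), mature hepatocytes against hepatoblasts (the second) and Diff. hepatocytes against mature hepatocytes (the third). Calls were lost in 34, 19 and 7 values and gained in 1, 24 and 4. The sign differed in 34, 18 and 39 values, and 0 of these were called by edgeR in either setting. Except where the scaling, threshold or number of genes itself sets the change, the cause was not tested.

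With library totals, 4 members were called higher in the first comparison (10 with TMM), 2 higher (7) and 16 lower (5) in the second and 0 lower (2) in the third. With TMM, 6 were lower in the third at an unadjusted p under 0.05 from edgeR, and DESeq2 called 2. Log2 fold changes of other sign were then, in the first, Hspa5 −0.09, Hyou1 −0.21, Sdf2l1 −0.17, Creld2 −0.26, Manf −0.18, P4hb −0.30, Edem1 −0.09 and Asns −0.30. In the second they were Hyou1 −0.35, Dnajb11 −0.30, Sdf2l1 −0.30, Creld2 −0.71, P4hb −0.59, Sel1l −0.04, Eif2ak3 −0.60 and Atf5 −0.02. In the third they were Hsp90b1 0.47, Hyou1 0.14, Dnajb11 0.39, Dnajc3 0.38, Sdf2l1 0.12, Creld2 0.45, Canx 0.49, P4hb 0.29, Sec61b 0.02, Herpud1 0.27, Sel1l 0.45, Atf6 0.47 and Ppp1r15a 0.25.

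Totals without the 50 most abundant genes called 2 members higher and 11 lower in the second comparison and 0 lower in the third. Signs differed in the first for Hyou1 (0.00), Creld2 (−0.05), P4hb (−0.09) and Asns (−0.08), and in the second for Hyou1 (−0.17), Dnajb11 (−0.12), Sdf2l1 (−0.11), Creld2 (−0.54), P4hb (−0.42) and Eif2ak3 (−0.41). In the third these were Hsp90b1 0.50, Hyou1 0.17, Dnajb11 0.42, Dnajc3 0.41, Sdf2l1 0.15, Creld2 0.49, Canx 0.52, P4hb 0.33, Sec61b 0.05, Herpud1 0.30, Sel1l 0.48, Atf6 0.50 and Ppp1r15a 0.27.

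With glmTreat, which tests against the fold change threshold, 4 members were called higher in the first comparison, 3 higher in the second and 0 lower in the third, and 2966 and 4221 genes were called in the first and the third (5145 and 6362 in the fit reported). At an adjusted p under 0.05 by edgeR with no fold change threshold, 7 members were lower in the first, 16 higher and 13 lower in the second, and 11 higher and 6 lower in the third. Genes called were then 10615, 12870 and 11580, and context genes 109, 130 and 126 (50, 73 and 50). A filter of 10 counts in every library, which leaves fewer genes, gave 1 member called lower in the first and 2634, 4379 and 3107 genes called. Signs differed for P4hb in the first (0.00), Creld2 in the second (−0.01), and Hsp90b1 (0.05), Creld2 (0.04), Canx (0.07), Sel1l (0.02) and Atf6 (0.04) in the third. With a filter of 1 count in any library P4hb was −0.01 in the first. TMM-scaled CPM in place of TPM gave log2 ratios of −0.07, −0.15 and 0.07 for the folding members (−0.58, −1.43 and 0.85).

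Without the 3 libraries that stood apart, chosen after seeing the data and not by a test, the sign differed for Hyou1 (−0.02), Creld2 (−0.11), Manf (−0.01) and P4hb (−0.13) in the first comparison, Creld2 (−0.22) in the second, and Creld2 (0.11) and Pdia4 (−0.02) in the third. Leaving out each library in turn, ranges that reached the other sign were 0.00 to 0.15 for Hyou1, −0.07 to 0.10 for Creld2, −0.10 to 0.09 for P4hb, −0.13 to 0.05 for Xbp1 and −0.02 to 0.12 for Asns in the first, −0.11 to 0.28 for Creld2 in the second, and −0.13 to 0.01 for Hsp90b1, −0.24 to 0.14 for Creld2, −0.07 to 0.12 for Pdia4 and −0.13 to 0.01 for Atf6 in the third. Members called higher were then 8 to 9, 6 to 8 and 7, and members called lower 2, 5 and 1 to 2. The labels do not say whether same-numbered libraries are paired. Of 12 same-numbered pairs, which correlated from −0.0813 to 0.324, 3 were above 0.1, all of hepatoblasts with Diff. hepatocytes (0.324, 0.246 and 0.184; the remaining pair −0.0589), where pairs of other numbers ran from −0.352 to 0.242. With a replicate block, 9 members were called higher in the first comparison, since Ddit3 was 0.99 (adjusted p = 0.000319 by edgeR).

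With 4 libraries per group, SD and SE rest on few values. Mature hepatocytes differ from the other groups in age and isolation together, and RNA of other cell types, with most erythroid and macrophage markers in hepatoblasts replicate 1, adds to bulk values. Scaling sets where 0 lies, so small differences have no firm sign. Depth limits genes near 0 counts, where fold changes are lower bounds from 3 counts, 0.0896 to 0.206 CPM. RNA levels alone were read, and splicing of Xbp1, protein levels and activity of the sensors were not analysed here.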
